A study of Triticum aestivum with 48 samples.

Results

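TaALMT1 encodes a wheat aluminium-activated malate transporter, and its transcript was followed through 16 groups of wheat seedling tissue. It was read from the 1 probe set that the platform annotation pairs with the gene LOC543388, out of 61290 probe sets on the Affymetrix Wheat Genome Array. The reference annotation of the Chinese Spring assembly lists TaALMT1, ALMT1-1 and ALMT1-2 as other names of this gene and places it on chromosome 4D. The gene was chosen by its measured log2 signals, which had differed between nitrogen supplies in earlier results from the same arrays. Its low-N against control differences are therefore given as a description with no test, and tests are kept for differences between tissues and between genotypes averaged over both supplies. These averages still include the low-N arrays behind that choice, so the tests are not fully apart from it.

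The seedlings were 15 days old, of the genotypes HD2967, K9107, K307 and Chotilarma (CL), grown in vermiculite and perlite on a medium whose nitrogen source was calcium nitrate. The low-N group of each genotype (labelled stressed) received 0.08 mM and its control group 8 mM, and roots and shoots were hybridised separately. Each genotype, supply and tissue had 3 arrays, 48 in all. The submitters describe 3 sets of pots per genotype but tie no array to a pot, so p-values measure the spread between these arrays. In whole roots and shoots, fewer cells of a type and less RNA per cell cannot be told apart.

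As background, ALMT1 is an anion channel of the plasma membrane. In wheat root tips it releases malate when aluminium ions reach the root in acid soil, and the malate binds the aluminium outside the cell. The gene is a major source of aluminium tolerance in wheat, and tolerant lines are known for higher transcript levels in their root tips. Malate is also a carbon skeleton and a counter-ion in nitrate nutrition.

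The deposited values were log2 signals made by RMA, an array summary that corrects background and normalizes arrays together. The array medians lay in 4 separate ranges of 12 arrays each. Set 1 had medians of 1.14 to 1.26, set 2 of 4.33 to 4.47, set 3 of 4.61 to 4.68 and set 4 of 5.32 to 5.39. Set 1 consisted of the 12 CL arrays, so the scale and the genotype of CL cannot be told apart, and CL log2 differences are not read as folds. A level was therefore also given as its percentile, the share of the 61179 probe sets of an array (111 control probe sets left out) that lie at or below it. As a check of the tissues, the 6 probe sets of the photosynthesis genes petC, PRK, PsbO and PsbP had a median percentile of 41.2 to 70.6 on the 24 root arrays and 95.5 to 99.8 on the 24 shoot arrays. The photosynthesis markers named below are these 6, and the 28 probe sets of the Rubisco gene rbcl on the same list were left out. With rbcl included, the median percentile was 13.3 to 33.0 on root arrays and 23.3 to 62.7 on shoot arrays, so the tissues overlapped. The array of CL low-N root 1 has a tissue field that reads shoot and a title that reads root. It had 70.3 on the 6 probe sets and 33.0 with rbcl, the highest root value there. It was kept as root.

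TaALMT1 covered most of the range of the array across the 16 groups. Its mean percentile was highest in K307 low-N roots, at 89.2 ± 1.1 (SD, n = 3, as for each group mean below), and in K307 low-N shoots, at 88.8 ± 5.7. K9107 low-N shoots followed at 82.6 ± 14.2 and CL low-N shoots at 81.9 ± 3.9. Thus the top of the order held low-N groups only, and 3 of its 4 leading groups were shoots. Next came K307 control roots at 70.1 ± 7.3, CL low-N roots at 65.9 ± 13.7, K9107 low-N roots at 59.9 ± 17.0 and K9107 control roots at 57.7 ± 3.7. CL control roots had 41.7 ± 9.5, K307 control shoots 36.9 ± 19.0, HD2967 control shoots 32.7 ± 4.0 and HD2967 low-N shoots 29.9 ± 5.2. At the bottom of the order were K9107 control shoots at 29.3 ± 12.8, HD2967 control roots at 28.5 ± 3.0, CL control shoots at 27.9 ± 6.9 and HD2967 low-N roots at 26.2 ± 5.2. Of the 15 pairs of neighbours in this order, 13 overlapped in their arrays. The ranges parted in 2 places, between CL low-N shoots and K307 control roots and between K9107 control roots and CL control roots.

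**Figure D1:**
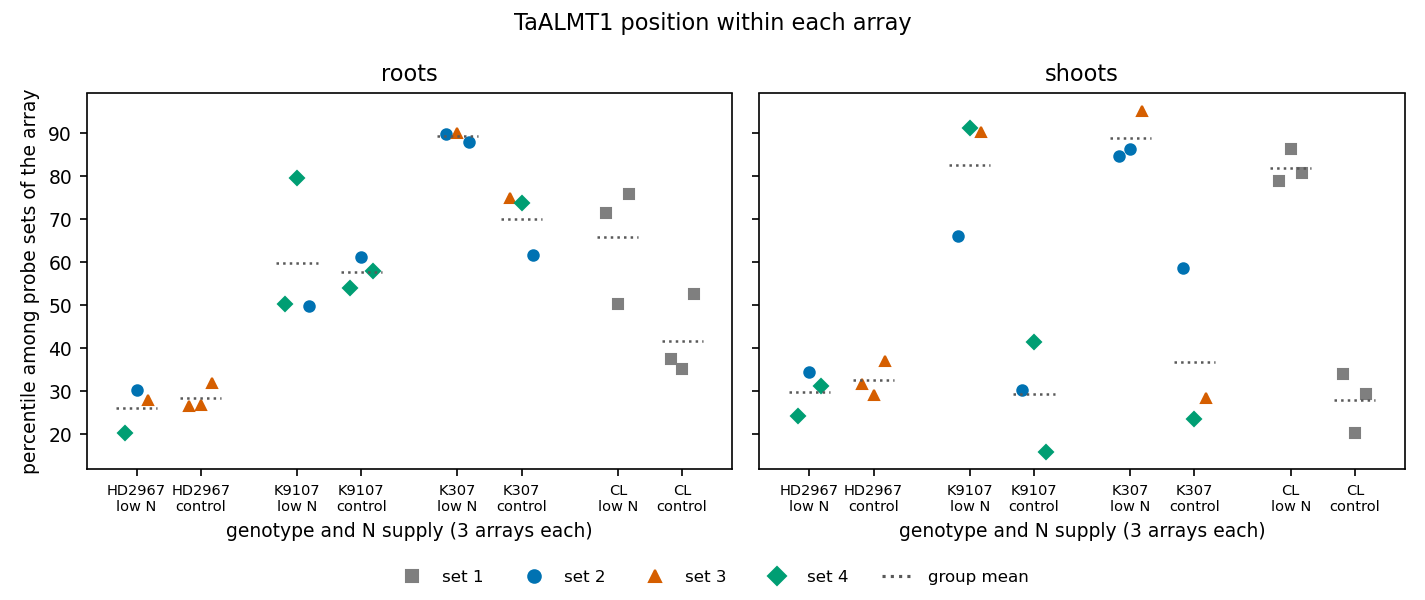
Percentile of TaALMT1 among the probe sets of its array (vertical axis) for each genotype and N supply, roots left and shoots right; points are arrays, marked by normalization set, and dotted lines are group means. HD2967 stayed between 20.3 and 37.1 on all 12 arrays, while shoots of K9107, K307 and CL sat at 66.2 or above under low N.

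HD2967 had a low signal in both tissues and at both supplies. In control shoots it was not alone in this, since K9107 at 29.3 and CL at 27.9 had mean percentiles as low as its 32.7. In HD2967 roots the log2 signal was 3.63, 3.15 and 3.32 under low N, against 3.21, 3.26 and 3.55 in controls. In HD2967 shoots it was 3.80, 3.34 and 4.20 under low N, against 3.49, 3.37 and 3.78 in controls. All 12 values were below the median of their array, by 0.83 to 1.74, and the supplies overlapped in both tissues. No detection calls were used here, so these levels are not shown to be above background. The fitted low-N minus control difference was 0.00 ± 0.53 in roots and 0.31 ± 0.84 in shoots (± standard error of the limma fit with the set as a term). In shoots the 2 supplies share no set, so that estimate rests on set offsets taken from the other genotypes. On the percentile scale, low-N HD2967 lay below its controls by a small margin, at -2.26 points in roots and -2.80 points in shoots.

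K307 had the highest mean percentile in each tissue at each supply, although in control shoots its arrays overlapped those of the other genotypes. Its root log2 signal was 8.19, 8.30 and 7.98 under low N, against 6.59, 7.13 and 5.29 in controls. Every low-N value was above every control value, and all 6 lay above their array medians. The fitted difference was 2.23 ± 0.48, or 4.68-fold. Within set 2 the low-N arrays were 2.80 higher (2 arrays against 1), and within set 3 they were 1.71 higher (1 against 1).

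In K307 shoots the log2 signal was 7.60, 7.84 and 9.31 under low N, against 5.09, 3.78 and 3.28 in controls. The groups did not overlap, and 2 of the 3 controls were below their array medians while control 1, in set 2, was above. The fitted difference was 4.56 ± 0.64. It is not given as a fold, because control shoots lay at signals not shown to be above background. It came to 2.63 within set 2 and 6.03 within set 3, so the size moved with the arrays compared. Without K307 control shoot 1 it was 5.79, and without control shoot 3 it was 3.81. The photosynthesis markers stood at mean percentiles of 99.2 in low-N and 99.3 in control shoots.

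K9107 differed between its tissues. In K9107 shoots the log2 signal was 5.77, 9.27 and 8.38 under low N, against 3.09, 4.86 and 3.37 in controls, with no overlap. The fitted difference was 4.12 ± 0.66. Within set 2 it was 2.68 and within set 4 it was 5.15. It was 3.20 without low-N shoot 2 and 5.06 without low-N shoot 1.

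In K9107 roots the values were 5.38, 7.75 and 4.37 under low N, against 5.64, 5.26 and 5.89 in controls. These arrays came from sets 2 and 4, so their order is given in percentiles. Low-N roots 1 and 3, at 50.3 and 49.9, were below all 3 controls, at 53.9, 61.3 and 58.0, and low-N root 2, at 79.6, was above them. The fitted difference was 0.24 ± 0.46, with 0.80 within set 4 and -0.89 within set 2. Leaving out low-N root 2 turned it to -0.57. The photosynthesis markers stood at mean percentiles of 55.5 in low-N and 46.2 in control K9107 roots, and their part in these values was not tested.

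CL had the same order of supplies in both tissues, on its own scale. In CL shoots the log2 signal was 2.96, 3.91 and 3.24 under low N, against 0.94, 0.74 and 0.82 in controls. All 3 controls lay below their array medians, and the low-N arrays were 1.77 to 2.77 above theirs. The percentile was 54.0 points higher under low N, close to the 53.3 points of K9107 shoots and the 51.9 points of K307 shoots. In CL roots the values were 2.06, 1.18 and 2.59 under low N, against 0.92, 0.97 and 1.26 in controls. The 2 supplies overlapped there through low-N root 2, and the percentile was 24.2 points higher under low N, against 19.1 points in K307 roots. Fitted differences were 2.54 ± 0.62 in CL shoots and 0.90 ± 0.46 in CL roots, and both grew when the arrays were quantile normalized again, to 3.70 and 1.55. Without CL low-N root 3 the root value was 0.57.

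**Figure D2:**
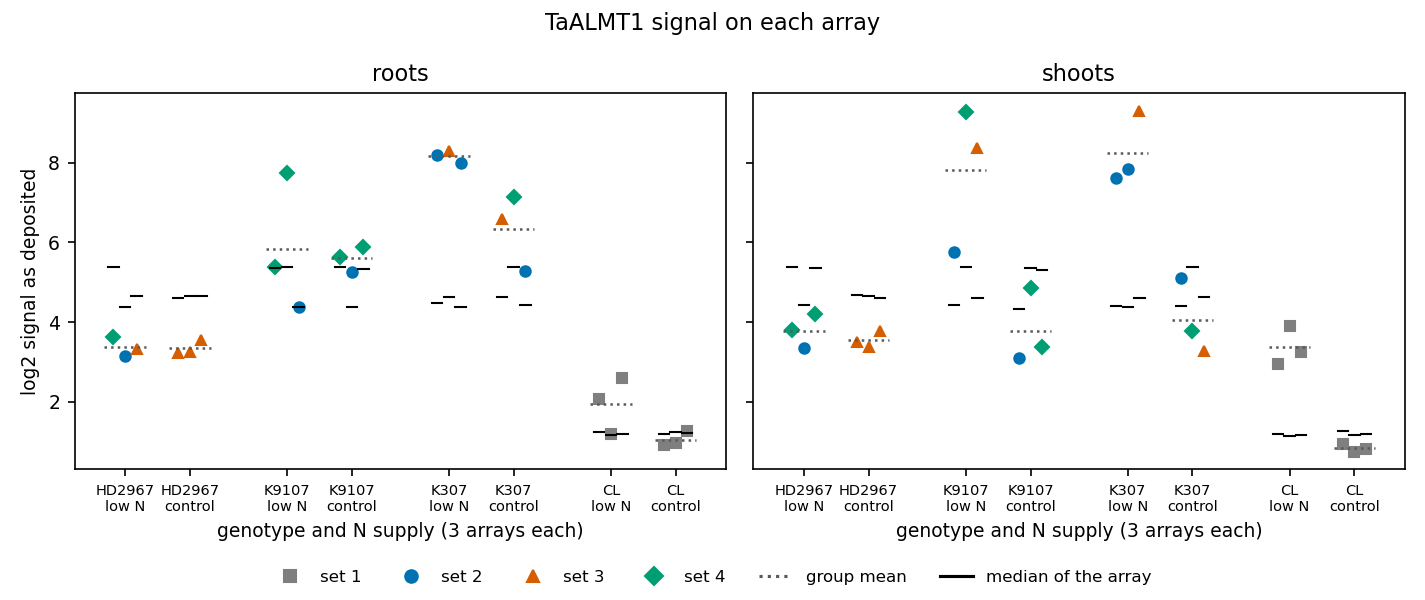
Deposited log2 signal of TaALMT1 (vertical axis) on each of the 48 arrays, by genotype and N supply, roots left and shoots right; symbols mark the normalization set, dotted lines the group means and short black lines the median of each array. The largest signals were 9.31 in a K307 low-N shoot and 9.27 in a K9107 low-N shoot, and CL arrays have much lower medians than the others.

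**Figure D3:**
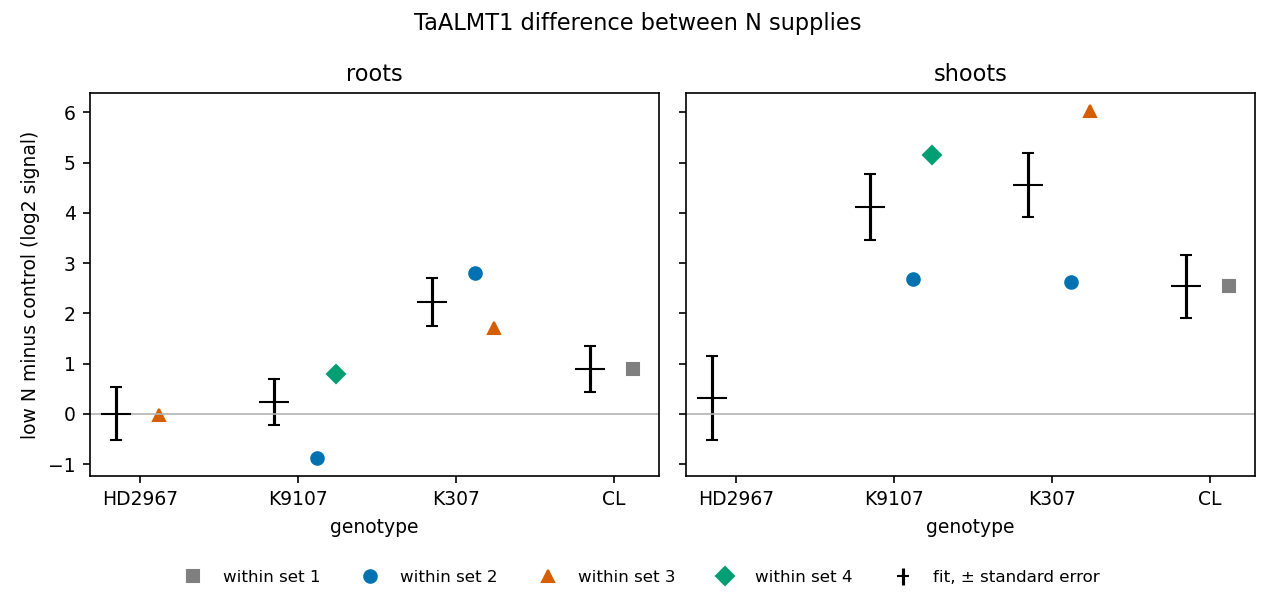
Low-N minus control difference in TaALMT1 log2 signal (vertical axis) by genotype, roots left and shoots right; black bars are the fitted difference ± standard error and symbols are differences of means within 1 normalization set. HD2967 shoots have no within-set value, and in shoots the other 3 genotypes range from 2.54 in CL to 6.03 within set 3 in K307.

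Root and shoot were then compared, a contrast that did not select the gene when averaged over supplies. Over HD2967, K9107 and K307, TaALMT1 lay 0.24 ± 0.23 higher in roots on the log2 scale (limma, Benjamini-Hochberg adjusted p = 0.397), a difference that did not pass. It was 0.10 without either K9107 low-N root 2 or K9107 low-N shoot 1 and 0.39 without K307 control shoot 1, with 0.23, 0.70 and 0.48 within sets 2, 3 and 4. Of all probe sets, 53.1% were called in this comparison at an adjusted p under 0.05. In CL the root minus shoot difference was -0.61 ± 0.39 (limma adjusted p = 0.368, with 19.4% of probe sets called). In percentiles over all 4 genotypes, roots averaged 54.9 ± 22.0 and shoots 51.2 ± 27.8 (SD, 24 arrays each). The difference of 3.65 points had p = 0.359 in a two-sided permutation test of 100000 resamples within genotype and supply.

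That average joined genotypes and supplies whose estimates differed, although the genotype by tissue test given below did not pass. K307 alone had a root minus shoot difference of 1.10 ± 0.39, against -0.15 ± 0.40 for K9107 and -0.23 ± 0.40 for HD2967. Under low N, root minus shoot was -2.12 ± 0.57 for K9107 and -1.43 ± 0.56 for CL, while K307 had -0.10 ± 0.56 and HD2967 had -0.26 ± 0.57. At control N it was 1.82 ± 0.56 for K9107 and 2.29 ± 0.56 for K307, while CL had 0.21 ± 0.56 and HD2967 had -0.20 ± 0.56. Thus low-N roots were on average below low-N shoots in K9107 and CL, and control roots were above control shoots in K307 and K9107. The K9107 low-N arrays overlapped, with root 2 at percentile 79.6 and shoot 1 at 66.2. The other groups compared in this way did not overlap in percentile. Within sets, K9107 kept these signs in each set that held both tissues, with -1.40 and -2.70 under low N and 2.17 and 1.65 at control N. K307 had 0.36 within set 2 and -1.005 within set 3 under low N, and at control N it had 0.19 within set 2, 3.31 within set 3 and 3.35 within set 4. These values use the same arrays as the nitrogen differences and carry no test.

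**Figure D4:**
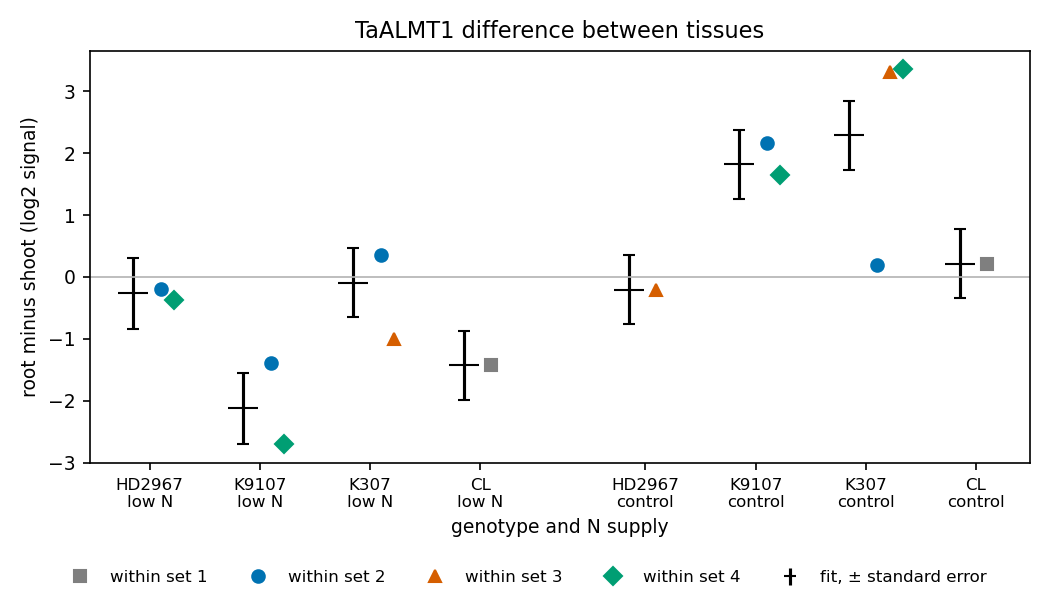
Root minus shoot difference in TaALMT1 log2 signal (vertical axis) by genotype under low N (left) and control N (right); black bars are the fitted difference ± standard error and symbols are differences within 1 normalization set. K9107 lies at -2.12 under low N and at 1.82 at control N, and HD2967 at -0.26 and -0.20.

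TaALMT1 differed between genotypes in roots. Averaged over supplies, K307 roots were 4.08 ± 0.35 above HD2967 roots on the log2 scale and 1.95 ± 0.38 above K9107 roots. K9107 roots were 2.14 ± 0.43 above HD2967 roots. No set held control roots of both K9107 and HD2967, so the control part of that average rests on set offsets taken from other groups. Under low N, K9107 minus HD2967 roots was 1.22 within set 2 (1 array against 1) and 2.93 within set 4 (2 against 1). No fold is given against HD2967, whose signal is not shown to be above background. The 3 genotypes differed in the limma F-test (adjusted p = 3.52e-07), which called 13.6% of all probe sets. The call held in all 24 fits that left out 1 array. The average over supplies takes in the low-N arrays behind the choice of the gene. At control N, K307 roots were 2.97 ± 0.53 above HD2967 and 0.95 ± 0.49 above K9107, and K9107 was 2.02 ± 0.62 above HD2967. Under low N these differences were 5.20 ± 0.48, 2.94 ± 0.52 and 2.25 ± 0.49, and none of these values by supply carries a test. Within set 3, K307 roots exceeded HD2967 roots by 4.99 under low N and by 3.25 at control N. K307 and K9107 control roots were 0.03 apart within set 2 and 1.37 apart within set 4.

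Percentiles put CL beside the others. They remove a change of scale that keeps the order of probe sets but no other effect of set 1, so in each CL difference below set and genotype cannot be told apart. Over 12 pairs of genotypes (6 per tissue), arrays were reassigned within supply in exact two-sided permutation tests, whose smallest possible p was 0.005. K307 roots, from 61.7 to 90.0 with a median of 81.5, lay above HD2967 roots, from 20.3 to 31.9 with a median of 27.4. K9107 roots ran from 49.9 to 79.6 and CL roots from 35.1 to 75.9, so all 18 root arrays of these 3 genotypes were above all 6 HD2967 root arrays. HD2967 differed from each of the other genotypes, and K307 differed from K9107 by 20.9 and from CL by 25.9 points (exact permutation, adjusted p = 0.012 for each of these 5 pairs, over the 12 pairs). These tests also average over the low-N arrays behind the choice of the gene. At control N, with no test, K307 roots exceeded K9107 by 12.4 and CL by 28.5 points. There K307, K9107 and CL roots exceeded HD2967 by 41.7, 29.3 and 13.2 points. Without K307 low-N root 1, 2 or 3, the adjusted p of K307 against K9107 was 0.06. CL and K9107 roots were 5.05 points apart, with CL lower (exact permutation, adjusted p = 0.513).

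In shoots the genotypes also differed in the limma F-test (adjusted p = 0.00114, with 11% of probe sets called). Averaged over supplies, K307 shoots were 2.79 ± 0.46 and K9107 shoots 2.21 ± 0.48 above HD2967 shoots, and K307 was 0.59 ± 0.47 above K9107. The call held in all 24 fits that left out 1 array, with adjusted p up to 0.011. In percentiles no shoot pair passed. K307 exceeded HD2967 by 31.5 points (exact permutation, adjusted p = 0.1), K9107 exceeded HD2967 by 24.6 (exact permutation, adjusted p = 0.111) and CL exceeded HD2967 by 23.6 (exact permutation, adjusted p = 0.12). Under low N, K307 shoots were 4.92 ± 0.70 and K9107 shoots 4.11 ± 0.66 above HD2967. At control N these differences were 0.67 ± 0.72 and 0.30 ± 0.84, each smaller than its standard error. Within set 3, which alone held control shoots of both, K307 minus HD2967 was -0.27 (1 array against 3). K9107 and HD2967 control shoots share no set, so the estimate of 0.30 rests on set offsets taken from other groups. The average over supplies thus carries the low-N signals by which the gene was chosen. The F-test in shoots cannot show a genotype difference apart from that choice. Whether the tissue difference itself varied among the 3 genotypes was tested in 1 fit of all arrays and did not pass (limma F-test, adjusted p = 0.227, with 5.08% of probe sets called). It passed without K307 control shoot 1 (adjusted p = 0.0357).

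Replicates of TaALMT1 spread more widely than those of most probe sets. Its residual SD was 0.63 in roots and 0.83 in shoots, against medians over all probe sets of 0.23 and 0.25. These values placed it at percentiles 98.2 and 97.3 of all probe sets.

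Other genes of malate release and nitrogen use were sought by word patterns in the symbols and synonyms of the 771 annotated genes. The lists for malate, citrate and PEP metabolism, for nitrate and ammonium uptake and assimilation, for other membrane transporters and for aluminium and metals matched no probe set in this way, and such genes were not analysed here. The list of organic acid transport held TaALMT1 alone. The plasma membrane proton pump gene ha1, whose product builds the electrical gradient across the root cell membrane, had 3 probe sets, all higher in low-N roots averaged over the 4 genotypes. They differed by 0.26 ± 0.07 (limma adjusted p = 0.0335), 0.30 ± 0.08 (limma adjusted p = 0.0373) and 0.22 ± 0.07 (limma adjusted p = 0.0453). This comparison called 6.57% of all probe sets, 3.48% higher and 3.08% lower. They match 1 gene and are not 3 independent results. Their median was 0.26, against 0.00 over all probe sets. For the first of them the genotypes ranged from -0.04 (CL) to 0.42 (HD2967), with K9107 at 0.31 and K307 at 0.37. The second, at 0.30, ranged from 0.13 (K9107) to 0.44 (K307), with HD2967 at 0.26 and CL at 0.35. The third ranged from -0.02 (CL) to 0.38 (K307), so the probe sets differed in their order of genotypes. These calls were fragile, as limma made 0 root calls in the lists with the replicate block, with no set term or after a second quantile normalization. Of the 24 fits that left out 1 root array, 17 changed the count of 4 list calls in roots to between 0 and 2. The exceptions were the fits without K307 low-N 1, 2 or 3, K307 control 1, K9107 low-N 3, CL low-N 1 or CL control 3, which gave 3 to 5 calls.

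In shoots, limma called 0 of the 3 ha1 probe sets (adjusted p of at least 0.771), where 0.842% of all probe sets were called, 0.539% higher and 0.302% lower. Between tissues, 2 of the 3 were lower in roots, by 0.28 ± 0.07 and 0.24 ± 0.06 on the log2 scale (limma adjusted p = 0.000489 and 0.000679), with 20.9% of all probe sets called lower. The photosynthesis list of 34 probe sets, 28 of them for the Rubisco gene rbcl, had 23 lower and 3 higher in roots, beside 32.2% of all probe sets called higher. Under low N, 1 rbcl probe set was called higher in roots (0.74 ± 0.22, limma adjusted p = 0.0489) and 0 in shoots, where the median of the list was -0.16 against -0.02 over all probe sets.

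Few probe sets followed TaALMT1 closely across groups. Likeness was measured by Spearman's rho of mean percentiles over the 16 groups, which share arrays and normalization sets, and is given with no test. Of 61178 other probe sets, 0 had a rho over 0.9 and 5 over 0.8. The highest 2 were both at 0.84, and neither is paired with a gene here. The first had a mean percentile of 55.8 in K307 low-N roots and 48.2 in K9107 low-N shoots. The second stayed at 9.05 or lower in every group, so its order rests on low signals. Each of the 97 other named genes was taken at its probe set of highest rho. The nearest were Hmgb3, a high-mobility group protein, at 0.61, and the translation factors eIF-2-beta and eIF4E-1, at 0.51 and 0.48. The beta-tubulin gene Tubb5 had 0.44 and APRT, an adenine phosphoribosyltransferase, 0.43. Hmgb3 ranked only 199 among all probe sets.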

How the data were processed

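The deposited log2 values came from RMA, as the submitters' processing notes name it, and were imported into GeneSpring 14.5, per the series description. The grouping of arrays for normalization is not given in the sources used here. Sets were formed from array medians wherever a gap exceeded 0.1. Differences were fitted with limma 3.58.1 in R 4.3.3 (two-sided, Benjamini-Hochberg adjustment over 61179 probe sets, threshold 0.05), with group and set as terms, 1 fit of 48 arrays for tissue contrasts and 1 of 24 arrays per tissue for N and genotype contrasts. Percentiles and permutation tests were computed in Python 3.11.15 with numpy 2.4.6. The limma code was first tested on simulated data.

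TaALMT1 and the lists were chosen with earlier results of these data known. Lists were matched on symbols and synonyms of the annotation, dated 2007, because no gene descriptions were used here, and PRK was added to the photosynthesis list after the annotation was seen. The rule for naming took, per list, the largest called changes or else the smallest p, and by likeness the 5 named genes and 2 probe sets of highest rho. No 2 arrays were copies, since at most 502 of 61179 values were identical between any pair. The number of arrays limits the precision.

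Replicate numbers were checked by correlating residuals of same-numbered arrays. Between root and shoot, 9 of 24 pairs passed 0.1 (-0.319 to 0.271), so the numbers were not taken as pairs. All 3 pairs passed for low-N with control CL shoots (0.115 to 0.228), K9107 low-N roots with shoots (0.169 to 0.271) and HD2967 with K9107 low-N shoots (0.168 to 0.613). These pairings come from the values alone, and the differences between the paired groups themselves carry no test. The same arrays do enter the tests averaged over supplies, between tissues, between genotypes in shoots and of genotype by tissue. In their main form those tests take no pairing into account. Differences by genotype at 1 supply and within sets were added after values were seen. Alternatives were another set handling, quantile normalization, a level filter, a replicate block, leaving out CL or each array in turn, and values within sets. For the N differences of TaALMT1, median centring, quantile normalization, the level filter and leaving out CL were chosen after seeing the data.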

Additional observations from a re-analysis of the deposited data

How the results depend on the processing

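The root and shoot genotype F-tests kept their side of the threshold under every alternative run. With no set term, 18 list probe sets were called between tissues, and 12 with probe sets above the median level only, against 28. In roots the 4 list calls under low N became 0 with no set term, 0 after quantile normalization and 0 with the replicate block, which called 1 in shoots, against 0. With the replicate block the tissue difference was 0.24 ± 0.18 (adjusted p = 0.287) and the HD2967 shoot N difference 1.80, against 0.31. The block left the CL shoot N difference at 2.54 and gave 26 list calls between tissues, and no call for TaALMT1 changed with it. Quantile normalization, chosen here after seeing the data, gave N differences of 1.55 in CL roots and 3.70 in CL shoots. N differences within set 2 were -0.89 in K9107 roots, 2.68 in K9107 shoots and 2.63 in K307 shoots, with 5.15 within set 4 for K9107 shoots and 6.03 within set 3 for K307 shoots. In percentile points HD2967 lay at -2.26 in roots and -2.80 in shoots. Within set 1 the root minus shoot percentile difference was -1.16. Measured as level minus array median, CL minus HD2967 shoots was 2.10 (exact permutation, adjusted p = 0.012), across different scales, and CL minus K9107 shoots 0.030. On that measure control shoots averaged -0.37 in CL and -1.10 in HD2967, although their mean percentiles were 27.9 and 32.7. The test of CL against HD2967 thus cannot show a genotype difference apart from the scale. For each change listed here, the cause was not tested.

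With 1 array left out, the genotype by tissue adjusted p ran from 0.0357 to 0.423 and the root list count from 0 to 5. N differences ran from -0.57 to 0.70 in K9107 roots, from 0.57 to 1.28 in CL roots, from -0.07 to 1.05 in HD2967 shoots, from 3.20 to 5.06 in K9107 shoots and from 3.81 to 5.79 in K307 shoots. In percentile points, K307 minus K9107 roots ran from 18.4 to 25.8 and CL minus K9107 shoots from -5.09 to 2.06. The number of arrays and signals near or below the array medians in HD2967 and in control shoots limit what can be resolved.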
